A study of Mus musculus with 7 samples.

Results

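The genes for the proteins of the mitochondrial ribosome were taken as every row of the count table whose symbol starts with Mrpl or Mrps and a number. The rule found 77 of 24419 genes. They were measured in LLC1, a Lewis lung carcinoma line of mouse origin, kept in DMEM with fetal bovine serum. One group of 4 libraries was wild-type for Ddx54, a nucleolar RNA helicase, and the other of 3 libraries carried a Ddx54 knockdown by shRNA. The labels give neither a construct in the wild-type cells nor the clone or the shRNA sequence. They do not say whether replicates were separate cultures, so the p-values cover only how far these libraries spread, possibly for technical reasons. The labels call the cells a lung cancer line, and among the markers Vim was at 6255 CPM (counts scaled to library size) and Krt18 at 217.5 CPM on average in wild-type, while Nkx2-1 had no count in any library and Epcam and Cdh1 had at most 3 counts in any. Summed over each marker list, 5 epithelial genes were at 238 to 248 CPM in wild-type and at 148 to 168 CPM in knockdown, and 3 mesenchymal genes at 6260 to 6441 and at 5780 to 5937 CPM, so both sums were lower in knockdown. Within the lists Krt18 averaged 132 CPM and Vim 5783 CPM in knockdown, Krt19 went from 4.39 to 1.08 CPM and Zeb1 from 97.2 to 55.8 CPM. The other way went Krt8, from 20.3 to 23.6 CPM, and the mesenchymal Cdh2, from 10.7 to 12.2 CPM. The 6 leukocyte genes summed to no more than 0.597 CPM, 3 lung lineage and 4 endothelial genes at no more than 0.784 CPM, and 4 fibroblast genes at 21.5 to 29.2 and 28.4 to 30.7 CPM. The ribosomal RNA precursor Rn45s took 10.7 to 12.5% of counts in wild-type and 7.96 to 9.07% in knockdown. The part of these differences in the results was not tested, and in bulk RNA fewer cells of a type and less RNA per cell cannot be told apart.

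Total counts were 14987324 to 18673395 per library, and the median tested member had 50.7 CPM in wild-type. Ddx54 itself measured 80.4, 82.5, 78.6 and 83.2 CPM in wild-type against 45.9, 39.2 and 45.8 CPM in knockdown, so the groups did not overlap and no library went against its label. Its log2 fold change was -0.90 (SE 0.0964, adjusted p = 6.55e-09, edgeR quasi-likelihood), and an exact two-sided permutation test gave p = 0.0286, the smallest that 35 splits allow. A fold change above zero stands for a higher level in knockdown throughout, and adjusted p-values are over all 11594 tested genes.

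The mitochondrial ribosome makes the few respiratory chain proteins that mitochondrial DNA encodes. Its small subunit reads the messenger RNA, and its large subunit joins the amino acids and releases the chain towards the inner membrane. Its RNAs come from mitochondrial DNA and were not analysed here, while all its proteins are encoded in the nucleus, made in the cytosol and imported. Some have a homologue in bacterial ribosomes, and others are found only in mitochondrial ribosomes. Mrps36 carries the family's name but is known as a part of the 2-oxoglutarate dehydrogenase complex, so it was set apart from both subunits.

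Mitochondrial ribosomal protein genes moved in both directions and mostly by little. Of 77 members 76 could be tested, 14 were higher in knockdown, 7 were lower and 55 did not pass. That is 27.6% of the tested members, against 29.4% of all tested genes. The share that rose was 18.4% against 14.1% of all genes, and the share that fell was 9.21% against 15.3%. The count is thus near the background, and nothing was tested that sets the family as a whole apart. Among members past the threshold, the largest rise was that of Mrpl18, which doubled, and none that fell dropped below 71.0% of its wild-type mean. Mrpl24, a gene with few counts, stood at 50.4% of its wild-type mean but did not pass. The median log2 fold change of the members was 0.055, against 0.0010 for all tested genes, and 44 of 76 members lay within 0.2 log2 units of no change. Without knockdown library 3 the number of members higher was 8, and without knockdown library 1 the number lower was 4.

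**Figure D1:**
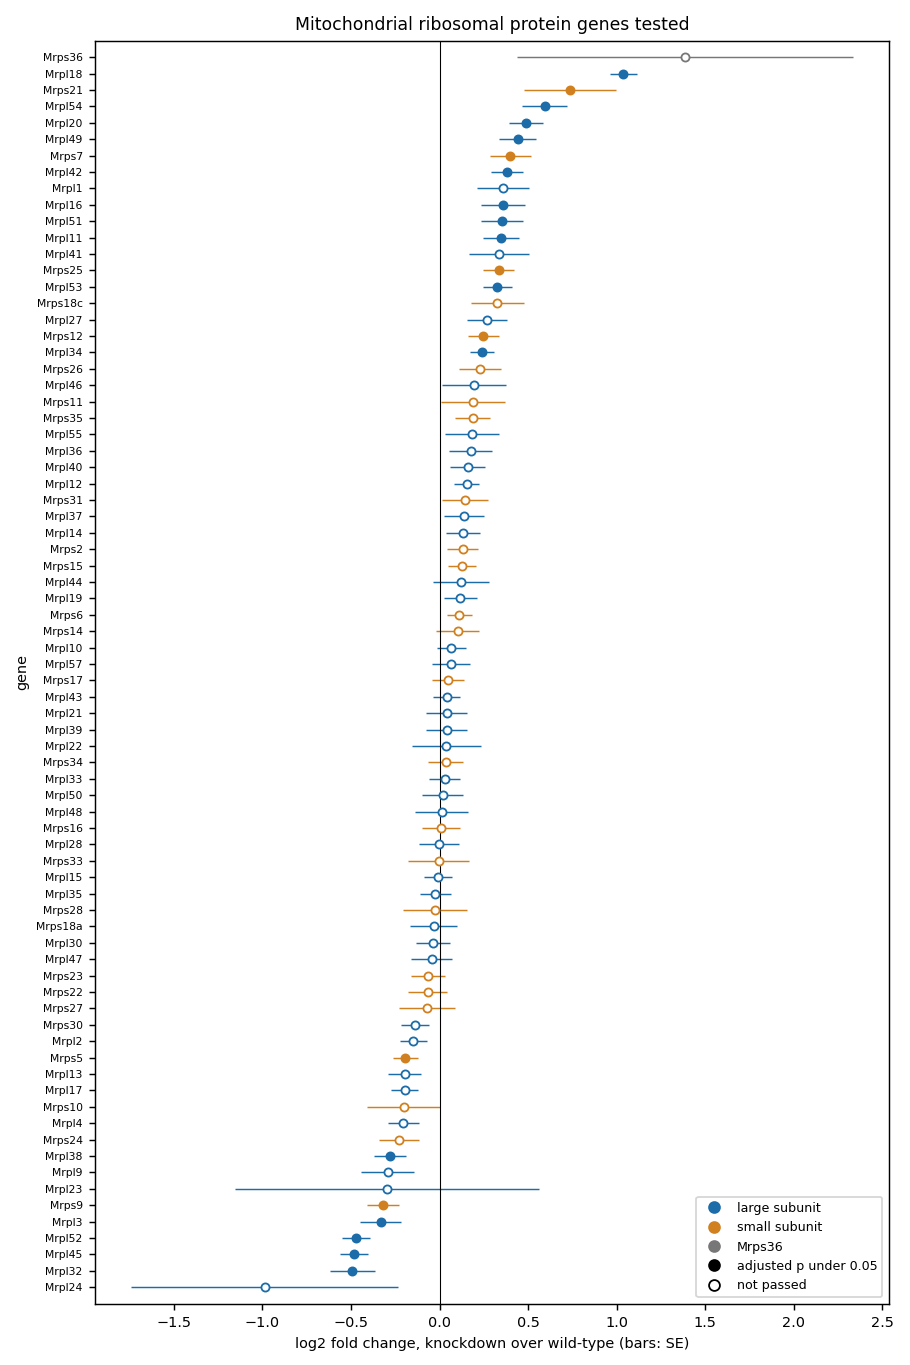
Log2 fold change of each tested member, knockdown over wild-type, with its SE as a bar. Blue marks the large subunit, orange the small and grey Mrps36, and filled points passed the threshold, with 14 to the right of zero and 7 to the left, and Mrpl18 stands at 1.04 with a short bar while the wide bars of Mrps36, Mrpl23 and Mrpl24 belong to genes with few counts.

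The summed level of all members was 4699, 4887, 4680 and 4465 CPM in wild-type and 4938, 4869 and 4935 CPM in knockdown. Wild-type library 2 lay among the knockdown values, so the groups overlapped, and the knockdown mean was 104.9% of the wild-type mean. The 50 large subunit genes summed to 3153 ± 118 CPM in wild-type (SD, n = 4) and 3318 ± 44.9 CPM in knockdown (SD, n = 3), and the 26 small subunit genes to 1530 ± 67.4 and 1594 ± 37.4 CPM. The ratio of the large to the small sum was 2.06 ± 0.064 in wild-type and 2.08 ± 0.068 in knockdown, a difference smaller than the SD of either group. The CPM ranges of the groups did not overlap for 27 of 76 members, 35.5%, against 35.1% of all tested genes.

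Mrpl18 encodes uL18m, a protein of the central protuberance at the top of the large subunit, and its RNA is also known as the source of a cytosolic form in heat-stressed cells. It lies on chromosome 17 at 12911349 to 12916345 on the minus strand (GRCm38/mm10, ENSMUSG00000057388.9, protein-coding). It was at 84.1, 88.8, 98.8 and 87.3 CPM in wild-type and at 188, 182 and 183 CPM in knockdown. Each knockdown library was far above every wild-type library, and the spread within either group was small beside the gap. The mean rose from 89.7 ± 6.34 (SD, n = 4) to 184 ± 3.28 CPM (SD, n = 3), which is 1.04 on the log2 scale (SE 0.0745, adjusted p = 1.1e-12). It stayed between 1.01 and 1.09 over all 16 alternatives. Only 1.05% of all tested genes passed with a rise of at least 1 log2 unit. Its exons share 141 bases with those of Tcp1 on the other strand, and the strand setting of the counting is not given in the sources used here.

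The stretch before the start site is shown for members past the threshold, as the place where a shared motif would be seen. RefSeq (GRCm38.p6) gave 74 windows for 68 of 77 members, and none for Mrpl54. Its starts can differ from those of the GENCODE annotation that gives the gene positions here, by more than 50 bases in 27 of the 74 windows. The Mrpl18 window begins at a RefSeq start 254 bases inside the GENCODE gene, and the Mrpl32 window at one 128 bases inside it, so neither is shown. The stretches given are those of the 2 largest rises and 2 largest falls in which GENCODE has no exon, among members with at least 10 CPM. Each is the 250 bases before the RefSeq start, 5′ to 3′ on the gene's strand, and capitals mark a motif from the list given after them.
Mrpl20 (chr4:155802628-155802877, plus strand): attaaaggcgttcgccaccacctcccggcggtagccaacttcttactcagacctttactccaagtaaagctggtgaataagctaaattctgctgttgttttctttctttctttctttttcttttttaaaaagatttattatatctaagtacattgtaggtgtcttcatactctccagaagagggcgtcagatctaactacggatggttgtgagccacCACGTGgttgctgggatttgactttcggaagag
Mrpl42 (chr10:95501950-95502199, minus strand): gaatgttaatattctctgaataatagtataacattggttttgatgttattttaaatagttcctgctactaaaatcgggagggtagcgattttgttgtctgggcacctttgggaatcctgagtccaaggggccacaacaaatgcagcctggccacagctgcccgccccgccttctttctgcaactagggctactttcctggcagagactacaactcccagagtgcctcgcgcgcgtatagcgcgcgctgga
Mrpl45 (chr11:97315466-97315715, plus strand): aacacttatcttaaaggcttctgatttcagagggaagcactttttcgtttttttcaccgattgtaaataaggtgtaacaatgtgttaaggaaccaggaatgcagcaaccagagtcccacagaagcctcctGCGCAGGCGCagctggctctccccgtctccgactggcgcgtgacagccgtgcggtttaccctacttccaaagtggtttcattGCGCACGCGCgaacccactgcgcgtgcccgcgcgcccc
Mrpl52 (chr14:54426659-54426908, plus strand): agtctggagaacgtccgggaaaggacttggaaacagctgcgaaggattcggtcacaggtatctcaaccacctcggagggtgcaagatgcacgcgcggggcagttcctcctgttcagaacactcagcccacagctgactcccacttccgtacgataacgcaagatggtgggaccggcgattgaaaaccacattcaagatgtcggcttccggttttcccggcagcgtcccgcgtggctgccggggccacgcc
The capitals are an E-box in Mrpl20, whose first base stands at -33 from the start, and 2 NRF1 motifs in Mrpl45, at -120 and -38. The shown stretches of Mrpl42 and Mrpl52 hold none of the motifs. In the searched bases after the start, which are not shown, Mrpl42 has a YY1 motif (first base at 28) and Mrpl52 an ETS motif (at 2). Mrpl45 has a further NRF1 motif there (at 16). The motifs searched on both strands were GCGC and TGCGC with 1 base of any kind between them (NRF1), CCGGAAGT (ETS, the site of GABP), AAGATGGCG (YY1), CACGTG (E-box) and TGATGNAAT (the ATF4 element CARE), and their letters can overlap each other. The search covered the 300 bases from 250 before to 50 after the start.

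NRF1 and GABP are known regulators of nuclear genes for mitochondria. An NRF1 motif was in 13 of 68 members (19.1%), in 12.3% of the 8819 other tested genes with a window and in 4.60% of all 32851 windows. Here and for the other motifs, the last share counts windows while the shares before it count genes, so it is not on the same scale. The ETS motif was in 12 members (17.6%, against 9.76% and 3.89%), and the YY1 motif in 8 (11.8%, against 3.78% and 1.40%). The E-box was in 5 members (7.35%, against 12.1% and 7.15%), and CARE in 0 of 68 (against 0.533% and 0.965%). Among members with a window, the NRF1 motif was in 1 of 13 that rose, in 3 of 6 that fell and in 9 of 48 that did not pass, with the untested Mrps18b left out. The ETS motif was in 2, 2 and 8 of these. These are counts of letters in a window around the RefSeq start, part of which GENCODE may place inside a gene, with no test and no measure of binding.

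Besides Mrpl18, 9 large subunit genes rose, by 0.24 to 0.59 log2 units. Mrpl54 (chromosome 10, 81264713 to 81266934), a protein near the base of the stalk that recruits translation factors, was at 25.9, 31.6, 27.6 and 24.5 CPM in wild-type and at 42.8, 38.6 and 42.6 CPM in knockdown (log2 fold change 0.59, SE 0.126, adjusted p = 0.000405). Mrpl20 (chromosome 4, 155802878 to 155809975), the homologue of bacterial L20, which binds ribosomal RNA early in assembly, was at 50.2, 57.4, 48.8 and 53.05 CPM in wild-type and at 70.8, 77.8 and 71.6 CPM in knockdown (0.49, SE 0.0966, adjusted p = 0.00018). In both genes every knockdown library lay above every wild-type library. Mrpl49, found only in mitochondrial ribosomes, rose from 56.7 ± 7.51 to 76.9 ± 8.01 CPM (0.44), and Mrpl42, also specific to mitochondria, from 63.1 ± 3.79 to 82.1 ± 3.30 CPM (0.38). Mrpl53, a second protein near the stalk, rose from 89.96 ± 7.84 to 113 ± 5.28 CPM (0.33). These 5 and Mrpl18 kept their calls in all 16 alternatives. Mrpl53 shares 695 exon bases, as many as its listed transcript holds, with Gm42688 on the same strand. Its reads could thus belong to either gene model, and how such reads were counted is not given in the sources used here.

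The other large subunit rises were less settled. Mrpl16 (uL16m), which contacts transfer RNA, was at 36.2, 37.9, 40.1 and 32.6 CPM in wild-type and at 56.3, 43.0 and 41.7 CPM in knockdown. The groups did not overlap, but knockdown library 1 stood above the other two, and its log2 fold change of 0.36 (adjusted p = 0.0254) became 0.21 (adjusted p = 0.298) without that library and 0.31 (adjusted p = 0.0832) without wild-type library 4. Mrpl11 (0.35), the stalk base protein uL11m, lost its call without knockdown library 3 (adjusted p = 0.0645), and Mrpl34 (0.24), bL34m, without knockdown library 1 (adjusted p = 0.0544). Mrpl51 (0.35) lost its call without wild-type library 1 or 3 and without knockdown library 2 or 3 (adjusted p from 0.0665 to 0.0903).

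In the small subunit 4 genes rose and 2 fell, of 25 tested. Mrps7 (uS7m), a protein of the head that meets the transfer RNA exit site, was at 31.6, 31.1, 33.1 and 30.8 CPM in wild-type and at 40.03, 41.6 and 43.7 CPM in knockdown (log2 fold change 0.40, SE 0.117, adjusted p = 0.00877). The groups were well apart, but the call was lost by a narrow margin without knockdown library 3 (adjusted p = 0.0542). Mrps25 rose from 74.6 ± 5.63 to 94.1 ± 8.03 CPM (0.33) and lost its call without the same library (adjusted p = 0.0516). Its exons share 4590 bases with those of Nr2c2 on the other strand. Mrps12 (uS12m), which lines the decoding centre, rose by 0.25 and lost its call without any single library but wild-type library 2 (adjusted p from 0.0556 to 0.116). Mrps21 (bS21m) was a low gene at 4.20, 8.56, 4.44 and 6.57 CPM in wild-type and 8.35, 10.4 and 10.9 CPM in knockdown. Its groups overlapped, its log2 fold change was 0.74 (SE 0.26, adjusted p = 0.0292), and the call was lost without wild-type library 1 or 3 and without knockdown library 2 or 3 (adjusted p from 0.0888 to 0.123), and with the GC and length correction (0.65, adjusted p = 0.0555). With knockdown library 3 left out, 0 small subunit genes were called higher.

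Of the 7 falls, 5 were in the large subunit. Mrpl32 (chromosome 13, 14608184 to 14613165), bL32m, which a protease of the inner membrane must trim before assembly, was at 37.8, 38.98, 41.96 and 32.98 CPM in wild-type and at 26.1, 28.004 and 26.7 CPM in knockdown (log2 fold change -0.49, SE 0.127, adjusted p = 0.00295). Mrpl45 (chromosome 11, 97315716 to 97329920), which ties the exit of the large subunit to the inner membrane, was at 133, 135, 125 and 115 CPM in wild-type and at 90.8, 87.9 and 94.1 CPM in knockdown (-0.48, SE 0.0799, adjusted p = 1.55e-05). Mrpl52 (chromosome 14, 54426909 to 54429756), a mitochondria-specific protein of the central protuberance, was at 116, 132, 134 and 124 CPM in wild-type and at 97.97, 87.5 and 87.8 CPM in knockdown (-0.47, SE 0.0801, adjusted p = 2.17e-05). In all 3 genes every knockdown library was below every wild-type library. Mrps9 (uS9m), whose tail reaches the peptidyl transfer RNA, fell from 87.8 ± 7.86 to 70.5 ± 3.14 CPM (-0.32, adjusted p = 0.00699). These 4 kept their calls in all 16 alternatives.

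The remaining 3 falls were smaller. Mrpl3 (uL3m), one of the proteins near the peptidyl transferase centre, fell by 0.33 on the log2 scale, and lost its call without wild-type library 3 and without knockdown library 1 or 2 (adjusted p from 0.0635 to 0.124). Mrpl38 (-0.28), of the central protuberance, lost its call without wild-type library 3 (adjusted p = 0.0567) or without knockdown library 1 or 3 (adjusted p from 0.0579 to 0.0828), and also when fold changes were corrected for length and GC content (-0.18, adjusted p = 0.149). Mrps5 (uS5m), which helps to set the accuracy of decoding, was at 181, 184, 180.0 and 182 CPM in wild-type and at 145, 162 and 168 CPM in knockdown. It fell by 0.19, and lost its call without wild-type library 4 or without knockdown library 1 or 2 (adjusted p from 0.0547 to 0.236).

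**Figure D2:**
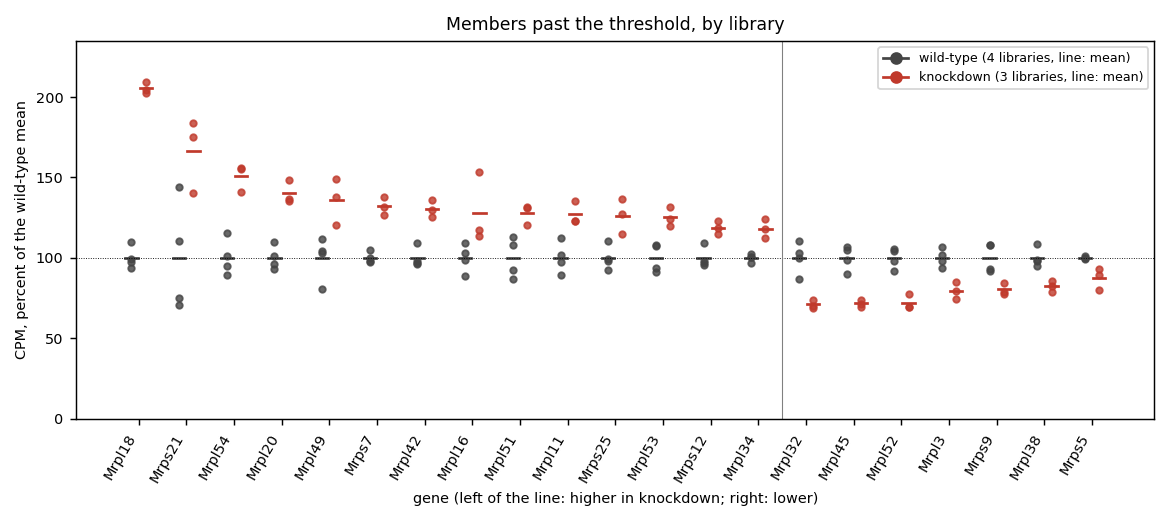
CPM of the 21 members past the threshold in each library, as a percentage of the gene's wild-type mean, with grey points for the 4 wild-type and red points for the 3 knockdown libraries and a line at each group mean. Mrpl18 stands near 205% in all 3 knockdown libraries, Mrps21 is the member whose groups overlap, and the 7 falls lie between 71.0% and 87.4% on average.

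Split by subunit, 10 of 50 large subunit genes rose and 5 fell (median log2 fold change 0.041), and 4 of 25 small subunit genes rose and 2 fell (median 0.10). Split by origin, 8 of 46 bacterial homologues rose (17.4%) and 4 fell (8.70%), with a median of 0.044. Of 29 mitochondria-specific genes 6 rose (20.7%) and 3 fell (10.3%), with a median of 0.063. By site, 3 of 5 genes at the stalk rose (Mrpl11, Mrpl53 and Mrpl54) and 0 fell, and the other two, Mrpl10 (0.067) and Mrpl12 (0.15), did not pass. Of 10 genes at the central protuberance Mrpl18 rose and Mrpl38 and Mrpl52 fell. Of 10 at the exit tunnel Mrpl49 rose and Mrpl45 fell, and of 4 at the messenger RNA path Mrps12 rose and Mrps5 fell. Members of one site thus moved in opposite directions at 3 of the 4 sites. The sites hold 4 to 10 genes each, so a share at one site rests on few genes, and the call of Mrpl11 was lost without knockdown library 3. No test of the classes was made.

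Bacterial S18 has 3 paralogs in the family. In the split by origin only Mrps18c was counted as a bacterial homologue, and Mrps18a was among the 29 mitochondria-specific genes. Mrps18a, which sits in the large subunit, was at 36.3, 40.7, 27.6 and 41.98 CPM in wild-type and at 35.1, 34.4 and 38.1 CPM in knockdown, with overlapping groups (log2 fold change -0.033, SE 0.132, adjusted p = 0.89). Mrps18c, in the small subunit, was at 28.02, 36.3, 21.8 and 28.3 CPM in wild-type and at 28.8, 42.5 and 36.3 CPM in knockdown. It did not pass the threshold (0.33, SE 0.149, adjusted p = 0.101). It passed without wild-type library 2 (0.46, adjusted p = 0.0185) and without knockdown library 1 (0.46, adjusted p = 0.0401). Mrps18b, the third of them, had 10, 5, 7 and 11 counts in wild-type and 0, 14 and 5 in knockdown, and failed the low-count filter. Its exons share 638 bases with the antisense gene Gm16279. Per kilobase of transcript, the scale on which genes can be compared, wild-type levels were 41.5 ± 7.33 for Mrps18a, 44.9 ± 9.32 for Mrps18c and 0.462 ± 0.123 for Mrps18b, so the first and second did not differ beyond their spread. Mrpl23, Mrpl24 and Mrps36 passed the filter with at most 31 counts in any library, so differences in them are poorly measured. Mrpl24 shares 594 exon bases with Rrnad1 on the other strand, and the annotation lists pseudogenes of Mrpl23, Mrpl48 and Mrps36. Whether these features lower their counts was not tested.

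Levels of different genes can be compared only per length, here as CPM per kilobase of 1 annotated transcript a gene, so a gene with a long listed form may read too low. On that scale the wild-type median of the 76 tested members was 29.4, and the 10th and 90th percentiles were 11.5 and 107, a 9.31-fold range. The highest were Mrpl52 (302 ± 18.8), Mrpl34 (282 ± 6.26) and Mrps6 (257 ± 10.4). The lead of Mrpl52 over Mrpl34 was about as large as its own SD, and in knockdown the order was Mrpl34 (333 ± 16.1), Mrps6 (278 ± 24.5) and Mrpl52 (218 ± 14.3). Mrpl18 went from 73.6 ± 5.20 to 151 ± 2.69 per kilobase. The lowest tested members were Mrps36 (0.561), Mrpl24 (0.986) and Mrpl23 (1.13), followed by Mrpl48 (4.90).

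**Figure D3:**
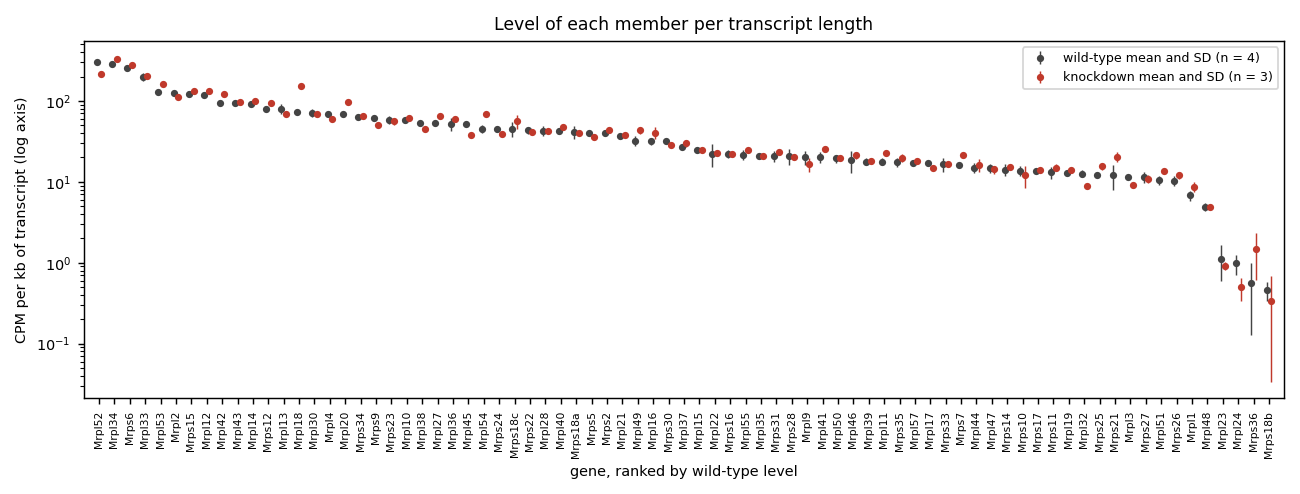
Level of each of the 77 members as CPM per kilobase of transcript on a log axis, ranked by the wild-type mean, with bars for the SD. The wild-type and knockdown means lie close together for most members, Mrpl18 is raised from 73.6 to 151, and Mrpl23, Mrpl24, Mrps36 and Mrps18b lie well below the others (the lower bar of Mrps18b in knockdown is cut, since its SD exceeds its mean).

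Many mitochondrial ribosomal protein genes start close to the start of another gene on the opposite strand. The distance was taken in either direction, so the pairs include genes whose 5′ ends overlap, such as Mrpl18 and Tcp1. A protein-coding start within 1000 bases on the other strand was annotated for 33 of 77 members (42.9%), against 17.5% of the 11024 other tested protein-coding genes. For 28 pairs both genes were tested, and in 8 of them the member had passed the threshold. Both genes passed in 3 of these 8 pairs, while 29.4% of all tested genes passed. They moved the same way in 1 of these 3 pairs. Mrpl51 and Ncapd2, a condensin subunit, both rose (0.35 each). Mrpl32 fell by 0.49 while Psma2, a proteasome subunit whose start lies 75 bases away, rose from 331 ± 23.5 to 386 ± 9.15 CPM (0.22, adjusted p = 0.0076). Mrpl49 rose by 0.44 while Fau, which encodes a cytosolic ribosomal protein and starts 59 bases away, fell from 763 ± 51.7 to 570.3 ± 26.8 CPM (-0.42, adjusted p = 2.91e-06).

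The neighbour of Mrpl18 is Tcp1, a subunit of the cytosolic chaperonin. Tcp1 was at 181, 171, 169 and 166 CPM in wild-type and at 181, 162 and 187 CPM in knockdown, with overlapping groups (log2 fold change 0.043, SE 0.0706, adjusted p = 0.698). The neighbour of Mrpl54, Apba3, averaged 33.9 ± 3.24 CPM without knockdown and 31.0 ± 3.40 CPM with it, and did not pass (-0.13, SE 0.129, adjusted p = 0.507). The rises of Mrpl18 and Mrpl54 were thus not matched by a call in the gene that starts beside them, though the difference within a pair was not itself tested. Over the 28 pairs the signs of both fold changes were the same in 18, and the Spearman correlation of the fold changes was 0.31, with no test. These neighbours were looked at after the members' values were known.

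**Figure D4:**
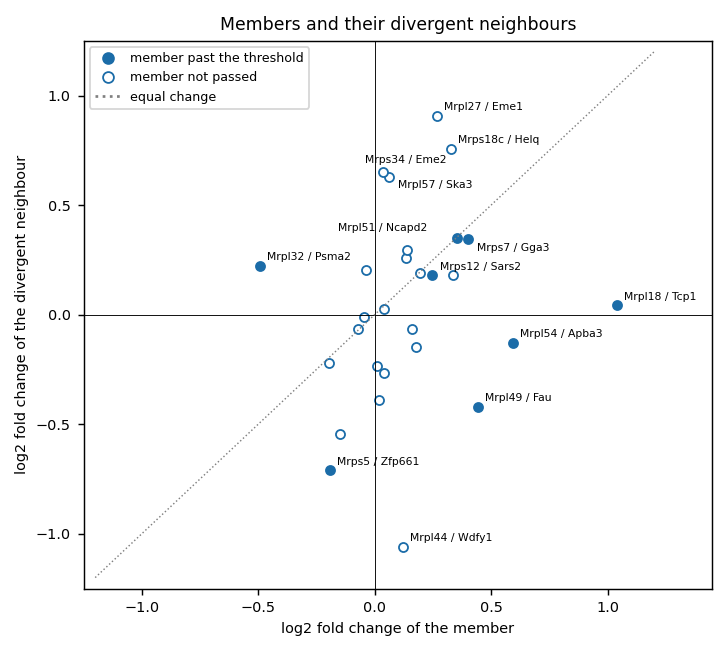
Log2 fold change of each member (horizontal axis) against that of the gene starting within 1000 bases on the opposite strand (vertical axis), for 28 pairs, with filled points where the member passed. Mrpl18, Mrpl54 and Mrpl49 lie far to the right with neighbours at or below about zero. Mrpl32 lies to the left with a neighbour above zero, and the signs were the same in 18 of the 28 pairs.

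Other parts of mitochondrial translation are given by lists, and against the 29.4% of all tested genes the share past the threshold was 16.7% for ribosome proteins without the family's symbol, 11.5% for assembly factors and 23.5% for translation factors. Among 6 mitochondrial ribosome proteins that do not carry the family's symbol, 1 fell and 0 rose. Aurkaip1 fell from 136 ± 9.02 to 114 ± 7.87 CPM (log2 fold change -0.26, adjusted p = 0.0116), and lost its call without knockdown library 3 (adjusted p = 0.107) and with the GC and length correction (adjusted p = 0.0949). Ptcd3 did not pass (0.50, adjusted p = 0.107), but passed as higher without knockdown library 3 (0.75, adjusted p = 0.00371) or wild-type library 2 (0.71, adjusted p = 0.00524). Of 26 assembly factors 1 rose and 2 fell, with a median of -0.096. Ngrn, needed for the large subunit RNA, fell from 47.4 ± 6.72 to 31.0 ± 1.21 CPM (-0.61, adjusted p = 0.00024), and the GTPase Mtg1 fell from 11.4 ± 3.50 to 6.30 ± 0.527 CPM (-0.85), a call lost without wild-type library 2 (adjusted p = 0.0556). Fastkd2, an RNA-binding factor of the large subunit, rose by 0.39 (adjusted p = 0.0469), a call lost in 9 of 16 alternatives, among them the removal of wild-type library 2 or 4 or of any knockdown library (adjusted p from 0.069 to 0.179).

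Of 17 translation factors 3 rose and 1 fell, with a median of 0.086. Pdf, which removes the formyl group from new chains, rose from 42.5 ± 5.05 to 62.5 ± 3.23 CPM (log2 fold change 0.56, adjusted p = 0.00015), and Mrrf, the ribosome recycling factor, fell from 25.6 ± 3.47 to 16.9 ± 1.24 CPM (-0.60, adjusted p = 0.00299). Mtfmt, which adds that formyl group to the starter transfer RNA, rose by 0.48, and Gfm1, an elongation factor, by 0.36. Mtfmt lost its call without wild-type library 2 or 4 or knockdown library 1 or 2 (adjusted p from 0.132 to 0.237), and with DESeq2 (0.0598), upper-quartile factors (0.0521) and Rn45s removed (0.05002), all adjusted p. Gfm1 lost it without wild-type library 3 or 4 or any knockdown library (adjusted p from 0.0501 to 0.142). Of 12 genes for mitochondrial DNA and its transcription Polrmt, the mitochondrial RNA polymerase, rose from 14.1 ± 1.59 to 23.5 ± 2.19 CPM (0.73, adjusted p = 0.00066) and 0 fell. Peo1, the mitochondrial DNA helicase Twinkle, did not pass (-0.27, adjusted p = 0.24). Past the threshold were 8.33% of the 12 mitochondrial DNA and transcription genes and 22.2% of 9 nuclear regulators, against 29.4% of all tested genes. Of these regulators 0 rose and 2 fell. These were Myc (-1.01) and Gabpb1, a subunit of GABP (-0.41, adjusted p = 0.0291), which lost its call without wild-type library 2 or knockdown library 1 or 2 (adjusted p from 0.0721 to 0.13).

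Cytosolic ribosomal proteins, the counterpart family in the cytosol, are given beside the mitochondrial one. Their summed level was 81867, 88335, 82415.5 and 74176 CPM in wild-type and 65591, 67197 and 66796 CPM in knockdown, so every knockdown library was below every wild-type library. Of 81 tested, 65 fell (80.2%) and 1 rose, Rps27l (0.35), with a median log2 fold change of -0.33. Among the mitochondrial genes 7 of 76 fell (9.21%) and 14 rose (18.4%), with a median of 0.055. Of all tested genes 15.3% fell and 14.1% rose, so the mitochondrial shares are the nearer of the families to those of all genes. The knockdown sum was 81.4% of wild-type for the cytosolic genes and 104.9% for the mitochondrial genes. The difference between the families was not tested, and cytosolic ribosomal protein genes have many pseudogenes.

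**Figure D5:**
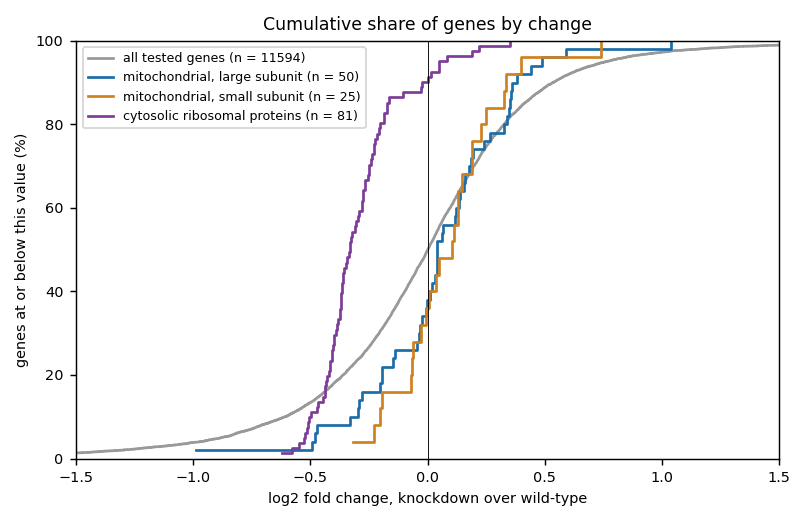
Cumulative share of genes by log2 fold change, knockdown over wild-type, for all tested genes (grey), the large (blue, n = 50) and small (orange, n = 25) mitochondrial subunits and cytosolic ribosomal proteins (purple, n = 81). The mitochondrial curves cross the middle near zero, at medians of 0.041 and 0.10, and the cytosolic curve crosses it at -0.33, and some of all tested genes lie beyond the ends of the axis.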

How the data were processed

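Polyadenylated RNA of 7 LLC1 libraries was analysed. The authors deposited raw counts per gene symbol in one table, and its 0 further sample columns leave nothing unused. Trimmomatic, STAR, HTSeq and build mm10 are named per the submitters' processing notes, with no versions or roles. The annotation, the strand setting and the handling of multi-mapping reads were not given in the sources used here.

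From the counts, edgeR 4.0.16 (R 4.3.3) was run on the whole table, with genes kept by filterByExpr on the group, TMM factors, a robust quasi-likelihood test of 3 knockdown against 4 wild-type libraries, Benjamini-Hochberg adjustment and a threshold of 0.05. The SE is the absolute log2 fold change over the square root of F, which is approximate. CPM uses the TMM factors. The test was first run on simulated counts. Positions, transcript lengths (the longest APPRIS principal form) and overlaps come from GENCODE M21 (GRCm38), in which all 77 members were found, and promoter windows from RefSeq.

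The members, lists and tests were chosen with earlier results of these data known. Genes to be named were fixed by rule: Ddx54, every member past the threshold (up to 25), members that failed the filter, the 3 highest and 3 lowest per length, the S18 paralogs, Mrps36, and in each other list up to 4 genes past the threshold with the largest change, or, if fewer than 2 passed, the 2 of lowest p. Other genes, such as neighbours, Rps27l and the unpassed stalk genes, were added after their values were seen. Alternatives were RLE and upper-quartile factors, no filter, at least 50 counts in 3 libraries, DESeq2 1.42.0, limma-voom (limma 3.58.1), a replicate block, removal of Rn45s, a correction for GC content and length (loess span 0.5), and leaving out each library.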

Additional observations from a re-analysis of the deposited data

Results flagged for a closer look

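In the wild-type group, 46 quantities were searched for a library standing apart from the other 3, and chance gives about 2.3 such cases. There were 2. Mrpl42 was at 68.7 CPM in wild-type library 3 against 60.6 to 61.9 CPM in the others, all below the knockdown libraries. Gabpb1 was at 30.2 CPM in wild-type library 2 against 26.3 to 26.7 CPM in the others, and without that library its fall was -0.36 on the log2 scale (adjusted p = 0.0721, edgeR).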

How the results depend on the processing

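All alternatives were planned. Members higher in knockdown numbered 8 to 17 and members lower 4 to 8 when single libraries were left out, and 12 to 14 and 5 to 8 in the other settings. With DESeq2 all 14 higher and 7 lower members were shared, and Mrpl17 was added as lower. Mrpl17 missed the threshold in the main fit (edgeR adjusted p = 0.0536). It was also called lower with the stricter filter, upper-quartile factors, the GC and length correction, and without wild-type library 4. All genes higher numbered 1222 to 1744 and all genes lower 1409 to 1860 over every setting, the median of the members stayed between 0.039 and 0.094, that of all genes between -0.0061 and 0.014, and Ddx54 between -0.93 and -0.81. With the replicate number as a block, members higher went from 14 to 12 (Mrpl16 and Mrps12 lost). Members lower went from 7 to 5 (Mrpl3 and Mrps5 lost). In that setting small subunit genes lower went to 1, assembly factors higher to 0 and translation factors higher to 1. The translation factors lost were Mtfmt (edgeR adjusted p = 0.178) and Gfm1 (edgeR adjusted p = 0.0605). Regulators lower went to 1 and ribosome proteins outside the rule lower to 0. Same-numbered libraries deviated with correlations of -0.034, -0.028 and -0.0063, and none correlated best with its own number. No shared deviation by number was thus seen, though such values cannot show whether same-numbered libraries were prepared together. Assembly factors higher were also 0 with DESeq2, upper-quartile factors and the GC and length correction. Proteins outside the rule were 0 lower with that correction and 1 higher with no filter. Leaving out single libraries gave 8 to 11 large subunit genes higher and 3 to 7 lower, and 0 to 6 small subunit genes higher and 1 to 2 lower. It gave 0 to 1 proteins outside the rule higher and 0 to 1 lower, 0 to 1 assembly factors higher and 1 to 2 lower, 1 to 4 translation factors higher and 1 to 2 lower, and 1 to 2 regulators lower. Mrps18a, which never passed, changed sign to 0.016 with the correction, 0.053 with the block, and 0.019 and 0.039 without wild-type library 2 or 4, and was lowest, -0.15, without wild-type library 3. The causes of these changes were not tested. Genes of a few CPM rest on few reads.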

Other observations

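How far members varied together within groups was described without a matching value for other genes. Over 72 members with at least 10 CPM in wild-type, the median pairwise Spearman correlation of deviations from the group mean was 0.11 across 7 libraries, which share their depth and scaling, and this is a description with no test. Tested members had a median transcript length of 1302 bases against 3053 in 11024 other protein-coding genes, and a median GC content of 50.4% against 50.3%. The members lie on 17 chromosomes, with 10 on chromosome 11, 8 on chromosome 17 and 7 on chromosome 6. Exons of 32 of the 77 members overlap those of another annotated gene, 27 of them on the opposite strand, and 7 of the 21 members past the threshold are among the 32.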
